A study of Mus musculus with 2 samples.

Results

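Hepatokines are proteins that the liver secretes and that act on other tissues or on the liver itself. The 9 genes described here, Fgf21, Gdf15, Igfbp1, Igfbp2, Angptl4, Ahsg, Fetub, Enho and Manf, were taken by gene name from 37146 genes in liver RNA-seq tables, and each name matched 1 gene identifier. The tables come from CD-1 mice, an outbred laboratory strain. The NP group received titanium dioxide nanoparticles by mouth at 50 mg per kg body weight per day, in a suspension stirred with ultrasound for 30 min. The Control group received the same volume of phosphate-buffered saline. A single library stands for each group (n = 1). The sources used here do not give the age, sex or fasting state of the mice, how long they were dosed, or how many were pooled. Spread between animals was therefore not measured and nothing was tested, and every statement below describes these libraries and not the treatment.

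The 9 proteins have different jobs. FGF21 and GDF15 are hormones that the liver releases under nutrient and cell stress. FGF21 signals through an FGF receptor with the co-receptor beta-Klotho, and GDF15 through GFRAL in the hindbrain. The IGF binding proteins IGFBP1 and IGFBP2 bind insulin-like growth factors in plasma, ANGPTL4 inhibits lipoprotein lipase, and fetuin-A (Ahsg) and fetuin-B (Fetub) are abundant plasma proteins of the cystatin superfamily. Enho encodes adropin, a small secreted peptide, and Manf encodes a protein of the endoplasmic reticulum (ER) lumen that is secreted during ER stress.

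Levels are FPKM, fragment counts corrected for the length of a row and the depth of its library, added up over the rows of a gene. The bracketed range is the 95% interval of the estimate within a library, combined over rows, and it holds no spread between animals. Of the 9 genes, 3 were higher in NP by 1.5-fold or more, namely Fgf21, Manf and Gdf15, taking the ratio after adding 1 FPKM to each value. The same size was reached upward by 3.67% of the 10657 genes whose mean reached 1 FPKM. None of the 9 (0) was 1.5-fold lower, a size that 5.79% of all genes reached downward. The other 6 lay within 1.5-fold. By plain FPKM 8 of the 9 were higher in NP, against 45.5% of all genes. Of 9 hepatocyte markers described below, 8 were higher too. Of 24 other liver-secreted factors 15 were higher and 8 lower, and of 18 IGF axis genes 5 were higher and 12 lower. In both of these lists the counts include genes whose mean was under 1 FPKM, which the 45.5% leaves out. The median log2 ratio of NP over Control was 0.39 for the 9 genes and -0.03 for all genes tested. By level the latter was -0.02 at a mean of 10 to 100 FPKM, 0.04 at 100 to 1000 FPKM and 0.05 above 1000 FPKM.

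The NP interval lay wholly above the Control interval for 8 of the 9 genes and overlapped it for Igfbp2. Over all genes tested that share was 7.65%, and 9.51% had the NP interval wholly below, as 0 of the 9 did. These shares include genes listed at 0 in a library, whose interval there was taken as 0. Of the 10657 genes, 10527 were above 0 in both libraries. However, intervals narrow with level and a small ratio then separates them. The share was 8.63% among genes with a mean of 10 to 100 FPKM, 22.4% between 100 and 1000 FPKM and 38.1% above 1000 FPKM. By their mean, 4 of the hepatokines fall in the lowest of these ranges, 4 in the middle and 1, Ahsg, in the highest.

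**Figure D1:**
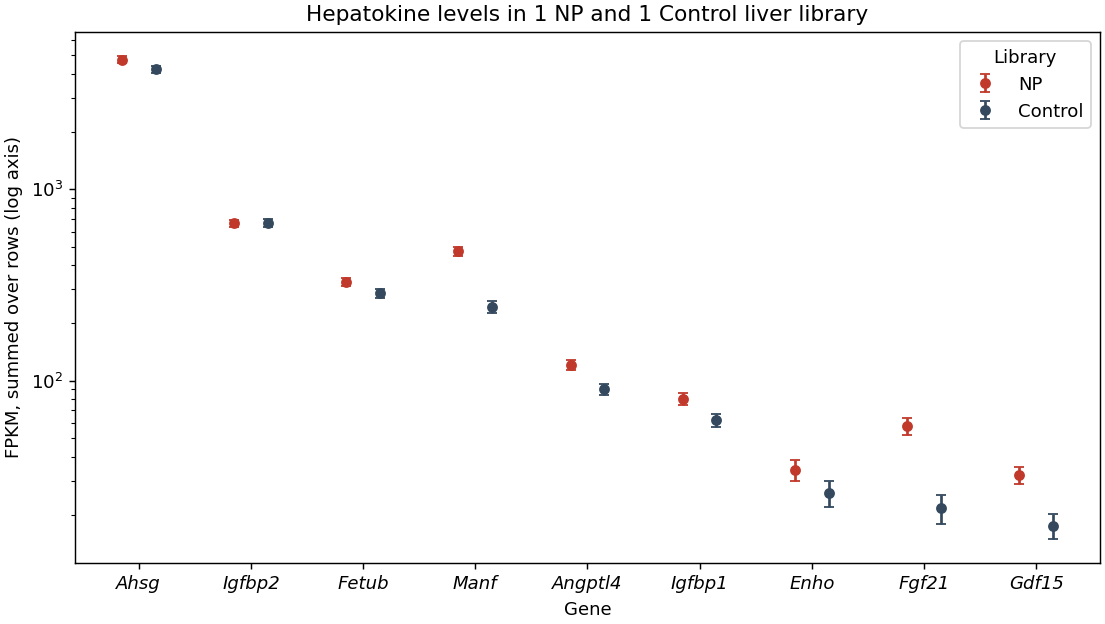
Summed FPKM of the 9 hepatokine genes (log axis) in the NP library (red, left of each pair) and the Control library (dark, right), with bars for the 95% interval within a library. Ahsg is near 4739 FPKM in NP and 4218 in Control, Igfbp2 coincides in both, and Fgf21, Gdf15 and Manf show the widest gaps.

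The order of the levels differed between the libraries. In NP it ran from Ahsg over Igfbp2, Manf, Fetub, Angptl4, Igfbp1 and Fgf21 to Enho and Gdf15, and only the intervals of Enho and Gdf15 overlapped. In Control it ran from Ahsg over Igfbp2, Fetub, Manf, Angptl4 and Igfbp1 to Enho, Fgf21 and Gdf15. Of the neighbours there, Enho and Fgf21 overlapped, as did Fgf21 and Gdf15. Among the 10657 genes, Fgf21 ranked 1221st by level in NP and 2735th in Control, and Ahsg ranked 15th in NP and 19th in Control.

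Fgf21 had the highest ratio of the 9. Its level was 58.2 FPKM (52.3 to 64.1) in NP, against 21.5 FPKM (17.9 to 25.2) in Control, which is 2.70-fold higher. The ends of the intervals put the ratio between 2.08 and 3.58. It was the only one of the 9 past 2-fold, a size that 1.22% of all genes reached upward and 2.25% downward. Its log2 ratio ranked 91st of 10657. The gene lies on chromosome 7 from 52869277 to 52870860 in the mm9 build of the files, and no other gene in the tables overlaps it. Its coding transcript of 930 nt was at 53.0 FPKM in NP and 18.6 FPKM in Control, 2.86-fold higher. The row that spans the whole gene, introns included, was at 5.16 FPKM (3.77 to 6.55) in NP and 2.99 FPKM (1.86 to 4.12) in Control, with overlapping intervals.

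The 250 bases before the start of Fgf21 are shown because the liver regulators ATF4 and PPAR alpha are known to act on this gene. They run from 45615491 to 45615740 on the minus strand of chromosome 7 in RefSeq's GRCm38.p6, a different build from that of the files. Capitals mark letters that match a searched motif on either strand.
Fgf21 upstream: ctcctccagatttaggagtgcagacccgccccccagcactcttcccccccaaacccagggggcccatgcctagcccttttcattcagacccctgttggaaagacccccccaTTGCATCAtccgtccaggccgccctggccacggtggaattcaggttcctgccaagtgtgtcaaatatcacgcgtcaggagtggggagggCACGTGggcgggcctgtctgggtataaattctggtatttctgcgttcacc
The first run of capitals, from -139 to -132 counted back from -1 at the last base before the start, matches TGATGNAA on the reverse strand. That is the core of the C/EBP-ATF response element, which ATF4 is known to bind, and 3.45% of 32851 upstream windows of this length hold it. The second, from -50 to -45, matches the E-box CACGTG, held by 6.02% of windows. No match was found in this window for the ER stress response element or its second form, for the unfolded protein response element TGACGTGG, for the PPAR response element or for the insulin response sequence CAAAACAA. The ER stress element is held by 0.113% of all windows, its second form by 0.0304%, the unfolded protein response element by 0.563% and the PPAR element by 0.0335%. Both ER stress elements end in CCACG, which TGACGTGG also holds on its reverse strand. A match says only that the letters are present, and no match says only that they are absent from this window.

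Gdf15, a stress-induced member of the TGF-beta superfamily, was at 32.2 FPKM (28.8 to 35.6) in NP, against 17.5 FPKM (14.98 to 20.1) in Control. The ratio was 1.84, between 1.44 and 2.37 by the interval ends, so its lower end is under 1.5-fold. The gene lies on chromosome 8 from 73153292 to 73156355. All transcript FPKM was in the row ENSMUST00000110103, at 25.7 FPKM in NP and 12.7 FPKM in Control, 2.02-fold higher. The other transcript, ENSMUST00000003808, starts 361 bases further downstream and was listed at 0 in both libraries, with an upper limit of 0.133 FPKM in NP and 0.150 FPKM in Control. In GENCODE vM21 both transcripts have the same coding exons, so they differ in their start and not in the protein. The gene-span row was at 6.54 FPKM (5.48 to 7.60) in NP and 4.84 FPKM (3.89 to 5.79) in Control. Weighted by row length, it held 36.1% of the gene's FPKM in NP and 45.9% in Control, the largest share of any of the 9 genes.

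The 250 bases before the start of ENSMUST00000110103 are shown for comparison with Fgf21. They run from 70632457 to 70632706 on the minus strand of chromosome 8 in GRCm38.p6. How the estimate was divided between the rows of Gdf15 was not tested, so neither start is shown to be the one in use.
Gdf15 upstream: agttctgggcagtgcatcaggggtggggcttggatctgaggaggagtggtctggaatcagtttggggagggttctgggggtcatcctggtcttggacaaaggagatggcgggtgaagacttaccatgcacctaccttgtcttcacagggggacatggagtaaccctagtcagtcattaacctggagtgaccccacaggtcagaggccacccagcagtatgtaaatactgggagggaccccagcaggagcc
None of the 7 motifs searched has a match in these letters. The window before the downstream start, whose transcript was listed at 0, holds the E-box CACGTG from -83 to -78.

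Manf was at 473 FPKM (447 to 499) in NP, against 244 FPKM (226 to 261) in Control. The ratio was 1.94, between 1.71 and 2.203 by the interval ends. It passed Fetub, which stood above it in Control and below it in NP. The gene lies on chromosome 9 from 106740643 to 106794310, a span that Vprbp overlaps from 106724205 to 106785649. Vprbp was listed at 0 in NP and at 5.43 FPKM in Control, but both Manf rows above 0 start beyond its end, at 106791093 and 106792362.

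The FPKM of Manf was split between 2 of its 7 transcript rows. ENSMUST00000069036, annotated as protein coding in GENCODE vM21, was at 186 FPKM (174 to 198) in NP and 108 FPKM (98.7 to 117) in Control. ENSMUST00000160978, of 502 nt and annotated as a retained intron, was at 287 FPKM (264 to 309) in NP and 136 FPKM (121 to 151) in Control. The second row thus held 60.7% of the transcript FPKM in NP and 55.8% in Control. The ratios were 1.73 for the coding row and 2.11 for the other. Both rows were higher in NP with separate intervals, and how the estimate divides shared exons between them was not tested.

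The end of ENSMUST00000160978 is shown to locate the intron bases that give it its annotated type; it also begins with another first exon than the coding transcript. The lower-case letters are the last 30 bases of an exon that it shares with the coding transcript, and the capitals are 130 bases of intron that it keeps. They cover 106890031 to 106890190 on the minus strand of chromosome 9 in GRCm38, from the GENCODE transcript.
Manf ENSMUST00000160978 end: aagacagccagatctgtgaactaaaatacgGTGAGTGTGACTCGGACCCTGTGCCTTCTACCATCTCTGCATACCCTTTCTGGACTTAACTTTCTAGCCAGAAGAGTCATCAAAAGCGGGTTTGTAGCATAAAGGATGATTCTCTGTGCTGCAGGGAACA
The capitals open with GT, the usual first bases of an intron.

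**Figure D2:**
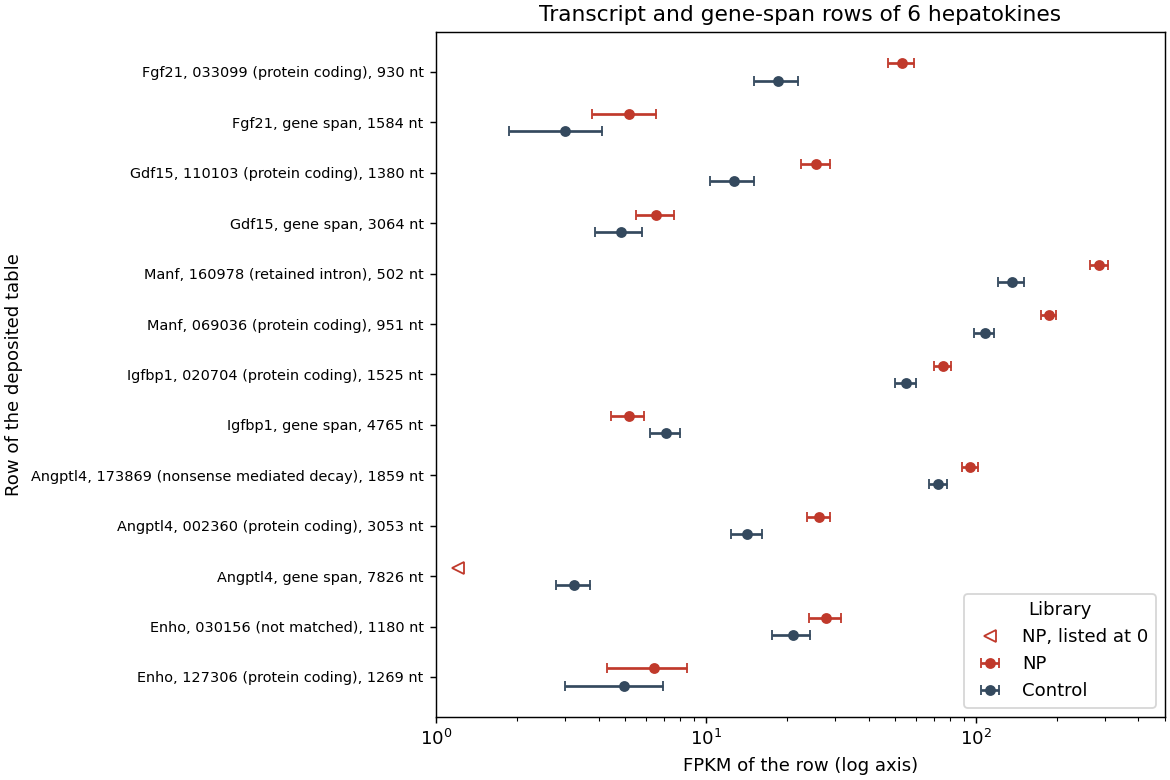
FPKM (log axis) of each row above 0 in a library for 6 hepatokines, with 95% intervals, in NP (red, above) and Control (dark, below). Row labels give the end of the transcript number, its GENCODE vM21 type and its length, and an open triangle marks a row listed at 0. The Igfbp1 gene-span row lies further left in NP than in Control, opposite to its transcript.

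Angptl4 was at 121 FPKM (114 to 128) in NP, against 90.1 FPKM (84.2 to 95.9) in Control, a ratio of 1.35 (1.19 to 1.52 by the interval ends). It lies on chromosome 17 from 33910695 to 33918520. The coding transcript ENSMUST00000002360 was at 26.2 FPKM (23.8 to 28.7) in NP and 14.2 FPKM (12.3 to 16.1) in Control, 1.84-fold higher. The row ENSMUST00000173869, annotated as a target of nonsense-mediated decay, was at 94.97 FPKM (88.6 to 101) in NP and 72.6 FPKM (67.1 to 78.1) in Control, 1.31-fold higher. Most Angptl4 transcript FPKM was thus listed under the decay transcript, with 78.4% of the transcript FPKM in NP and 83.6% in Control. The gene-span row was listed at 0 in NP, with an upper limit of 0.0237 FPKM, and at 3.24 FPKM in Control.

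Both Angptl4 transcripts have 7 exons and differ, apart from their ends, only at the start of exon 3. The stretch around that junction is shown with the last 30 bases of exon 2 first. It ends at 33780620 on the minus strand of chromosome 17 in GRCm38, and the sequences are those of GENCODE vM21. In the coding transcript, capitals mark the 4 bases that the decay transcript lacks, and in the decay transcript they mark the stop codon.
Angptl4 coding: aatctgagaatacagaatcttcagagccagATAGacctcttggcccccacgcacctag
Angptl4 decay: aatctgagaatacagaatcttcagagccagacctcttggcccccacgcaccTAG
Without the 4 bases the annotated reading frame of the decay transcript ends after 462 coding bases, against 1230 in the coding transcript. The rows also differ in length, 3053 nt for the coding and 1859 nt for the decay transcript in the files, and an estimate from short reads rests on the ends as well as on this junction. How the estimate was divided between the rows was not tested.

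Igfbp1, whose gene insulin is known to repress through FOXO1, was at 80.4 FPKM (74.8 to 86.1) in NP, against 62.1 FPKM (57.2 to 67.1) in Control, a ratio of 1.30 (1.12 to 1.51 by the interval ends). Its rows went opposite ways. The transcript was at 75.3 FPKM (69.7 to 80.9) in NP and 55.0 FPKM (50.1 to 59.9) in Control. The gene-span row was at 5.18 FPKM (4.44 to 5.91) in NP and 7.10 FPKM (6.17 to 8.03) in Control. The intervals were separate for both rows, and weighted by length the span row held 17.7% of the FPKM in NP and 28.8% in Control. Igfbp1 lies on chromosome 11 from 7097785 to 7102549, and no other gene in the tables overlaps it.

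The bases before the start of Igfbp1 are shown for the insulin response sequence, and run from 7197537 to 7197786 on the plus strand of chromosome 11 in GRCm38.p6.
Igfbp1 upstream: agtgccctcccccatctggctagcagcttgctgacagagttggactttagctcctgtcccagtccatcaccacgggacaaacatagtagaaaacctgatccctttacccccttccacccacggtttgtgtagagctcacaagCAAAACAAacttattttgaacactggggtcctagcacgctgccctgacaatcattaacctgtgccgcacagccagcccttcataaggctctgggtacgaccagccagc
The capitals, from -108 to -101, match CAAAACAA, a core of the insulin response sequence that FOXO factors are known to bind, held by 2.21% of all windows.

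Igfbp2 was the 1 gene of the 9 without separate intervals, at 663 FPKM (632 to 694) in NP, against 666 FPKM (634 to 697) in Control. The ratio was 0.996, and the interval ends put it between 0.907 and 1.10. All of its FPKM lay in the transcript ENSMUST00000047328. It lies on chromosome 1 from 72871077 to 72899048. An upstream window of Igfbp2 also holds the E-box CACGTG, from -142 to -137. The upstream windows of Ahsg and Fetub hold none of the motifs searched.

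The fetuin genes, which neighbour each other on chromosome 16, were the most and the fourth most abundant of the 9 in NP, and both had small ratios. Ahsg (22892115 to 22899511) was at 4739 FPKM (4541 to 4938) in NP, against 4218 FPKM (4040 to 4395) in Control, a ratio of 1.12. Fetub (22918455 to 22939839) was at 328 FPKM (311 to 344) in NP, against 286 FPKM (271 to 301) in Control, a ratio of 1.15. Of the 4 Fetub transcripts, ENSMUST00000023587 held all FPKM. It starts 1840 bases downstream of ENSMUST00000170805, the transcript with the outermost start, which was listed at 0 in both libraries.

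Enho was at 34.3 FPKM (29.9 to 38.6) in NP, against 25.9 FPKM (22.0 to 29.8) in Control, a ratio of 1.32. The interval ends put the ratio between 1.00 and 1.76, so the summed intervals barely parted. Within each of its 2 transcripts the intervals overlapped, at 27.9 FPKM (24.1 to 31.6) in NP and 20.9 FPKM (17.5 to 24.3) in Control for ENSMUST00000030156. Enho lies on chromosome 4 from 41585177 to 41587357, where it overlaps Dnaic1 and Gm12406, both listed at 0 in both libraries.

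**Figure D3:**
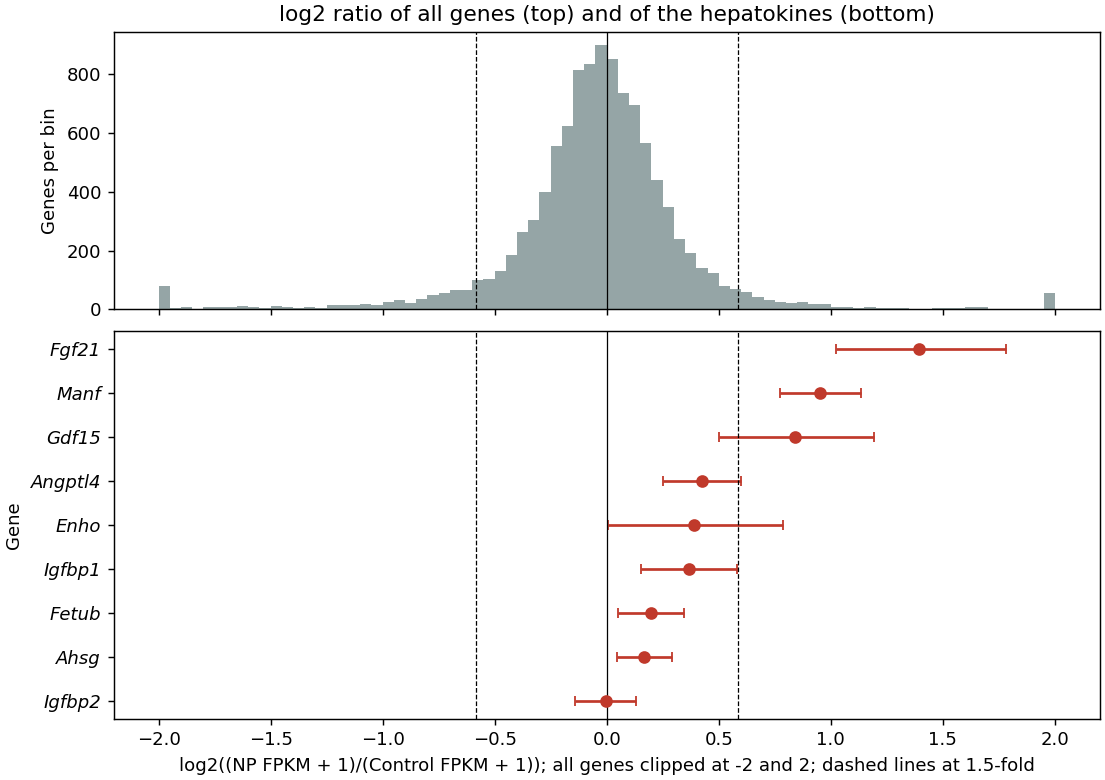
Top, the number of genes per bin of log2((NP FPKM + 1)/(Control FPKM + 1)) for all 10657 genes tested, clipped at -2 and 2. Bottom, the same ratio for the 9 hepatokines with bars from the interval ends; Fgf21, Manf and Gdf15 lie beyond the dashed line at 1.5-fold and Igfbp2 lies at 0.

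For each gene past 1.5-fold the 3 genes nearest in level were sought, by the distance in log2 FPKM over the 2 libraries. Nearest to Fgf21 was Cdc123 (61.4 FPKM in NP and 21.6 FPKM in Control, distance 0.08), followed by Mfsd2a and Ppp1r3b at distances of 0.33 and 0.34. Nearest to Manf were Ubb, Herpud1 and Gm5096 (0.19, 0.30 and 0.38). Nearest to Gdf15 were Lgals4, Timm23 and Zfp259 (0.06, 0.14 and 0.18).

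Other genes for liver-secreted factors were mostly level between the libraries. Of 24 listed, 21 passed the filter on low values, of which 3 were 1.5-fold higher, 0 were lower and 18 lay between, with a median log2 ratio of 0.07. The 3 were Fgl1, a fibrinogen-like protein, Gm6484, named Angptl8 in RefSeq, and Itih3, an inter-alpha-trypsin inhibitor chain. Fgl1 was at 1013 FPKM (970 to 1056) in NP, against 315 FPKM (294 to 336) in Control. Gm6484, whose protein takes part in the inhibition of lipoprotein lipase, was at 105 FPKM (96.9 to 113) in NP, against 37.6 FPKM (32.7 to 42.5) in Control. Its ratio of 2.79 was close to the 2.70 of Fgf21. Among the lowest were Fst and Gdf2, with Fst at 0.856 FPKM in NP and 1.70 FPKM in Control and Gdf2 at 3.49 FPKM in NP and 4.58 FPKM in Control, both with overlapping intervals.

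Of 18 genes listed as receptors and partners of these proteins, 11 passed the filter, with 0 higher, 1 lower and 10 between, and a median of 0.08. Klb, which encodes beta-Klotho, was at 9.09 FPKM (8.01 to 10.2) in NP and 8.55 FPKM (7.44 to 9.65) in Control. Fgfr4, the main FGF receptor of hepatocytes, was at 18.0 FPKM in NP and 15.2 FPKM in Control, with overlapping intervals. Gfral was listed at 0 in NP and at 0.00210 FPKM in Control, and its partner Ret at 0 in both. Kdelr2, a receptor that returns proteins to the ER, was at 44.7 FPKM (41.0 to 48.3) in NP and 37.4 FPKM (34.0 to 40.8) in Control. Fgfr1, an FGF receptor through which FGF21 signals, had a plain ratio of 1.89 at low levels, with 1.46 FPKM (0.663 to 2.30) in NP and 0.772 FPKM (0.424 to 1.12) in Control, and the intervals overlapped. The 1 lower gene was Lpl, lipoprotein lipase, at 1.85 FPKM (1.42 to 2.28) in NP and 3.32 FPKM (2.70 to 3.93) in Control.

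Around the IGF binding proteins, 11 of 18 genes of the IGF axis passed the filter and all 11 lay within 1.5-fold with 1 FPKM added, with a median of -0.02. The lowest was Irs1, an insulin receptor substrate, at 1.85 FPKM (1.54 to 2.15) in NP and 3.20 FPKM (2.76 to 3.63) in Control, a plain ratio of 0.579. Irs2 was next, at 3.32 FPKM in NP and 4.46 FPKM in Control, with overlapping intervals. Igf1 was at 366 FPKM (346 to 386) in NP and 364 FPKM (343 to 385) in Control, and Igfbp4 at 646 FPKM in NP and 636 FPKM in Control. Igfals, which encodes the acid-labile subunit of the circulating IGF complex, was at 38.9 FPKM (35.6 to 42.2) in NP and 30.3 FPKM (27.4 to 33.1) in Control. Igfbp3 was at 7.50 FPKM in NP and 9.53 FPKM in Control, with overlapping intervals. In the list of insulin and FOXO targets, 1 of 12 genes was higher, 1 lower and 10 between (median 0.01). The higher was Pdk4 and the lower Srebf1, at 5.33 FPKM (4.63 to 6.03) in NP and 14.0 FPKM (12.5 to 15.4) in Control.

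Of 16 genes around lipoprotein lipase, 13 passed the filter, with 2 higher, 1 lower and 10 between (median -0.02). Besides Gm6484 the higher gene was Lipg, endothelial lipase, at 7.31 FPKM (6.40 to 8.22) in NP and 4.13 FPKM (3.42 to 4.84) in Control.

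The lists that hold the known regulators of Fgf21, Gdf15 and Manf differed in how many genes were higher. In the ER chaperone and unfolded protein response list, 7 of 19 genes were 1.5-fold higher, 0 lower and 12 between (median 0.37). The highest were Herpud1, Dnajb9 and Syvn1, with ratios of 2.51, 2.46 and 2.31. Sdf2l1 and Creld2 were named after their values were seen. Sdf2l1, an ER chaperone subunit, was at 58.1 FPKM (52.7 to 63.5) in NP and 29.9 FPKM (26.0 to 33.8) in Control. Creld2, also an ER protein that is secreted, was at 130 FPKM (122 to 138) in NP and 78.9 FPKM (72.7 to 85.1) in Control. The lowest were Atf6, Ern1 and Dnajb11, each with overlapping intervals. Atf6 was at 7.15 FPKM (6.48 to 7.82) in NP and 7.73 FPKM (6.99 to 8.48) in Control. Ern1 was at 12.5 FPKM (11.6 to 13.5) in NP and 13.3 FPKM (12.2 to 14.3) in Control. Dnajb11, an ER co-chaperone, was at 64.8 FPKM (60.2 to 69.3) in NP and 68.3 FPKM (63.4 to 73.3) in Control. Cdnf, the paralog of Manf, was at 0.224 FPKM in NP and 0.0726 FPKM in Control, under the filter. In the integrated stress response list, 3 of 13 were higher, 0 lower and 10 between (median 0.27), the 3 being Ddit3, Eif2ak3 and Vldlr. Ddit3, which encodes CHOP, was at 23.8 FPKM in NP and listed at 0 in Control, so no fold is given. It counts as higher through that 0 alone, and genes known to be broadly expressed, such as Vprbp in NP and Rbm15b in both libraries, are also listed at 0, so a listed 0 is not read here as a low level. By plain FPKM, 12 of the 21 genes found in the list were above Control and 8 below. Among those above, Atf5 was at 370 FPKM (352 to 388) in NP and 307 FPKM (292 to 323) in Control. Ddit4 was at 2.40 FPKM in NP and 1.52 FPKM in Control, with overlapping intervals. Among those below were the next 4 genes. Eif2ak1 encodes the heme-regulated kinase of this response and was the lowest gene past the filter. It was at 9.60 FPKM (8.59 to 10.6) in NP and 13.2 FPKM (12.0 to 14.5) in Control. Trib3 was at 6.16 FPKM in NP and 7.51 FPKM in Control and Sesn2 at 3.05 FPKM in NP and 3.64 FPKM in Control, both targets of the pathway with overlapping intervals. Asns, asparagine synthetase, a known target of ATF4, was under the filter at 0.499 FPKM in NP and 1.01 FPKM in Control, also with overlapping intervals. Psat1, likewise under the filter, went the other way, at 0.640 FPKM in NP and 0.206 FPKM in Control with overlapping intervals. Atf4 itself was at 76.4 FPKM (70.6 to 82.2) in NP and 58.4 FPKM (53.2 to 63.5) in Control. Cebpb, a partner of ATF4 on the response element named above, was at 77.7 FPKM (72.1 to 83.4) in NP and 51.5 FPKM (47.0 to 56.1) in Control, just under 1.5-fold with 1 FPKM added.

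In the PPAR alpha and fasting list, 3 of 17 genes were higher, 0 lower and 14 between (median 0.05). Vnn1, a pantetheinase, was at 37.7 FPKM (34.8 to 40.6) in NP and 18.7 FPKM (16.6 to 20.7) in Control, and Cyp4a14 and Pdk4 were the other 2. The lowest was Acot1, an acyl-CoA thioesterase, at 169 FPKM (159.7 to 179) in NP and 184 FPKM (173 to 194) in Control. Ppara itself was at 51.1 FPKM (47.5 to 54.6) in NP and 51.7 FPKM (48.1 to 55.4) in Control. Around the fetuins, 0 of 7 cystatin superfamily genes and cathepsins were 1.5-fold higher or lower (median 0.12). Of 13 liver transcription factors, 0 were higher, 1 was lower and 12 lay between (median -0.02).

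**Figure D4:**
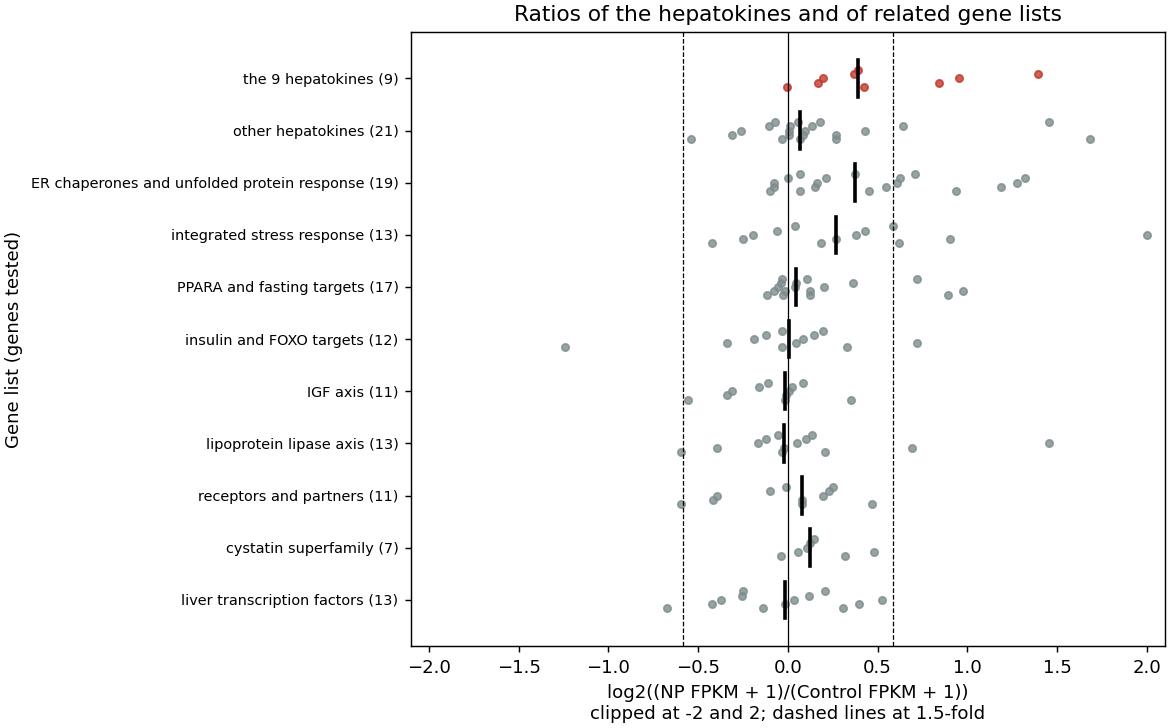
log2((NP FPKM + 1)/(Control FPKM + 1)) of each gene past the filter in the 9 hepatokines (red) and in 10 related lists (grey), with the number of genes in brackets, a black bar at each median and dashed lines at 1.5-fold. Ddit3 is drawn at the clip of 2. The medians of the hepatokines and of the ER chaperone list, 0.39 and 0.37, lie furthest to the right.

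The libraries also differed in their content. Read coverage per FPKM was 2.92 in NP and 2.29 in Control, so NP was covered 1.28 times as deeply, which is the only measure of depth used here. All 9 hepatocyte markers were present and within 1.5-fold, with a summed level of 64400 FPKM in NP and 53635 FPKM in Control, and 8 of 9 were above Control. Alb alone was at 30741 FPKM in NP and 21660 FPKM in Control. Serpina1a and Cps1 had ratios of 1.01 and 1.03. Apoa2 was lower, with separate intervals, at 12904 FPKM in NP and 14204 FPKM in Control. Markers of exocrine pancreas, a tissue known to express Fgf21 and Manf strongly, summed to 0.194 FPKM in NP and 17.3 FPKM in Control. In NP 7 of these 9 were listed at 0, in Control 1 was, and here too a listed 0 is not read as a low level. Summed markers were 52.8 FPKM in NP and 73.6 FPKM in Control for endothelium (7 of 8 lower, 1 at 0). Of this, Clec4g was at 30.6 FPKM in NP and 44.6 FPKM in Control, and 2 of the 8 had separate intervals. For Kupffer cells and macrophages the sums were 18.4 FPKM in NP and 34.9 FPKM in Control (7 of 7 lower). Clec4f alone was at 7.63 FPKM in NP and 18.4 FPKM in Control, and 2 of the 7 had separate intervals. Summed markers were 74.3 FPKM in NP and 90.6 FPKM in Control for stellate cells (6 of 7 lower, 3 with separate intervals). They were 14.2 FPKM in NP and 17.6 FPKM in Control for cholangiocytes (2 of 5 lower and 3 higher, with Spp1 at 11.4 FPKM in NP and 15.1 FPKM in Control), 4.98 FPKM in NP and 6.41 FPKM in Control for lymphoid cells (4 of 7 lower and 3 higher), and 560 FPKM in NP and 618 FPKM in Control for erythroid cells (3 of 5 lower, 1 higher). Neutrophil markers summed to 5.51 FPKM in NP and 4.54 FPKM in Control (3 of 5 higher, 1 lower), and adipocyte markers to 13.3 FPKM in NP and 9.14 FPKM in Control, nearly all of it Fabp4, at 12.8 FPKM in NP and 9.12 FPKM in Control with overlapping intervals, while Lep and Retn were listed at 0 in both. In whole liver, fewer cells of a type and less RNA per cell cannot be told apart. The part of these differences in the hepatokine ratios was not tested.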

How the data were processed

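RNA of frozen liver was extracted with Trizol and made into Illumina TruSeq RNA libraries, per the labels' protocols. Per the submitters' processing notes the tools were TopHat2 2.1.0 and Cufflinks 2.2.1.0 and the build mm9, with no roles or settings. The authors deposited FPKM with a 95% interval for each of 119289 rows, 87656 transcripts and 31633 gene spans, in the isoform tracking format of Cufflinks per the file headers. Read coverage, a signal not scaled to depth, was also deposited.

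For each library the FPKM of a gene's rows, transcripts and span, were added, and half-widths of rows above 0 were combined in quadrature, which leaves out covariance between rows. Compared were the 10657 genes that reached a mean of 1 FPKM and had OK status in all rows. Differences were log2((NP + 1)/(Control + 1)), which understates those of low genes. Ratios given for single genes are of plain FPKM. Counts used a fixed size of 1.5-fold, since 1 library per group allows no test. The size rule was run on changes placed in these values without noise and well past 1.5-fold. That checks the calculation only, and not its error with 1 library per group. The naming rule took all 9 hepatokines, up to 3 genes at each end of a list by log2 ratio, receptors and partners of a hepatokine, and the 3 genes nearest in level. Igf1, Sdf2l1, Creld2, Cdnf, Cebpb, Atf4, Atf5, Ddit4, Asns, Psat1, Ppara, Lep, Retn and Cela2a were named outside it, after their values were seen. Vprbp, Rbm15b, Dnaic1 and Gm12406, whose spans overlap a hepatokine gene, were also named outside the rule. Vprbp and Rbm15b were chosen as examples of a listed 0 after their values were seen. Some genes stand in several lists, and some genes that the rule or a list holds are not reported here. Alternatives changed the pseudocount, rows, scaling, filters, size and value used. Members, lists and motifs were chosen with earlier results of these data known. Transcript types came from GENCODE vM21 by identifier (24 of 26 matched), and 6 of the 9 genes had an upstream window in RefSeq's GRCm38.p6 table. Python 3.11.15, pandas 2.3.3, numpy 2.4.6 and matplotlib 3.10.9 were used.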

Additional observations from a re-analysis of the deposited data

How the results depend on the processing

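Under 9 other settings of pseudocount, rows summed, scaling, status and read coverage in place of FPKM, the log2 ratio of Fgf21 ran from 1.39 to 1.47, of Manf from 0.95 to 1.07 and of Gdf15 from 0.84 to 0.96. Angptl4 ran from 0.38 to 0.48, Igfbp1 from 0.35 to 0.45, Enho from 0.39 to 0.42, Fetub from 0.20 to 0.23 and Ahsg from 0.17 to 0.20, and Igfbp2, whose sign turned, from -0.01 to 0.03. All these values lay within the interval ends of the reported ratios. The count of hepatokines 1.5-fold higher was 3 under every setting tried except a size of 2-fold, which left 1, Fgf21, and the count lower was 0 under all. Over all genes, the 2-fold size gave 130 higher and 240 lower, and a minimum mean of 5 FPKM gave 225 higher and 276 lower, against 391 higher and 617 lower; fewer genes or a larger size enter by construction. Requiring a transcript of at least 300 nt or leaving out genes at 0, both chosen after seeing the data, kept these counts within 1.5 times. No paired analysis was possible because each group has 1 library. Nor could a library be left out. The width of the intervals, which covers the estimate within a library only, limits what can be read from Enho and from single rows.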

Other observations

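Transcripts of digestive enzymes of the exocrine pancreas were listed above 0 in the Control liver library and mostly at 0 in the NP library, at low levels where above it. Ctrb1, a chymotrypsinogen, was at 0.130 FPKM (0 to 0.499) in NP, against 4.92 FPKM (3.19 to 6.65) in Control. Clps, the lipase cofactor colipase, was listed at 0 in NP and at 2.92 FPKM (1.08 to 4.76) in Control, and Pnlip, pancreatic lipase, at 0 in NP and 2.35 FPKM (1.47 to 3.22) in Control. Of the 9 genes in the list, Cela2a alone was listed at 0 in both libraries. A listed 0 is not read as a low level here either, and where these transcripts came from was not tested.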
